A study of Mus musculus with 12 samples.

Results

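The replication-dependent histone genes are the clustered genes that supply the core of newly made nucleosomes. They were taken here as every row of the deposited count table whose symbol begins with H1-, H2ac, H2bc, H3c or H4c and a member number. The rule found 58 genes among 24934 in the table: 18 of the H2A class (2 of them annotated as pseudogenes), 17 of H2B, 11 of H3 and 12 of H4. Of these, 49 lie on chromosome 13 and 9 on chromosome 3. No symbol matched the H1- pattern, because the table names the linker histone genes H1f, and those are described apart from the members. Filtering on low counts left 39 members for testing (7 of H2A, 12 of H2B, 9 of H3 and 11 of H4), and the other 19 had between 2 and 287 reads in all libraries together.

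RNA was sequenced from BV2 cells, an established mouse microglial line, as 4 libraries each of Control (no treatment named), OGD (oxygen and glucose deprivation with re-oxygenation, a culture model of ischaemia) and Acacetin (10 µM of the plant flavone acacetin, which the design text places after that insult, although the treatment label itself names only the compound). All cells are of 1 line, in which the myeloid gene Lyz2 averaged 1712 CPM, while the microglial marker P2ry12 was at or near 0 in every library. Separate cultures are not stated for the libraries within a group, so the p-values measure only the spread between these libraries, which may be technical. The kit is named as one for mRNA, and the labels do not say how mRNA was selected.

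Histone mRNAs of this family are made in S phase, when DNA is copied, and are destroyed when replication stops. Most end not in a poly(A) tail but in a short 3′ stem-loop, which the stem-loop binding protein SLBP holds during processing, translation and decay. Many of the genes can also yield longer, polyadenylated transcripts from a site further downstream, mainly in cells that have left the cycle, and a library made by poly(A) selection favours those.

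The stem-loop is the sequence that sets these mRNAs apart from others, and 6 examples are given for members that the results turn on. Each run is 30 bases of a GENCODE M21 transcript model (GRCm38), written as DNA from 5′ to 3′, with the 16 bases of the stem-loop in capitals.
H4c9: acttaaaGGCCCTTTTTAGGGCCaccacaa
H4c8: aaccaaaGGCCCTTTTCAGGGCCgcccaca
H4c4: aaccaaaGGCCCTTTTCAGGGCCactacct
H3c15: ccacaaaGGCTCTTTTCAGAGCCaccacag
H3c8: ctttaaaGGCTCTTCTTAGAGCCacccatc
H2bc9: acccaaaGGCTCTTTTCAGAGCCactcaag
The search asked for the stem arms GGNNCT and AGNGCC around the loop TNTN, with N for any base, on the transcript strand. The pattern was found in models of 36 of the 58 members, against 111 of all 141767 transcripts (0.0783%) and 82 of 55450 genes (0.148%). The form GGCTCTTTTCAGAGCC was held by 20 members (9 of H2A, 7 of H2B and 4 of H3), and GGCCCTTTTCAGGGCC by 6 members, all of H4. H4c9 shares the form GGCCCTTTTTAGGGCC with 1 other H4 gene, and H3c8 has a form found in no other member. The models of H2bc4, H2bc21 and H4c11 held no match, which says only that these letters are not in those models.

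Library depth ran from 16427886 to 32693066 counted reads. The 18S ribosomal RNA gene Rn18s, whose RNA has no poly(A) tail, took 0.469%, 1.85%, 0.188% and 0.144% of reads in Control 1 to 4. Its share was 0.248%, 13.1%, 21.3% and 0.277% in OGD 1 to 4, and 0.137%, 0.237%, 1.23% and 1.86% in Acacetin 1 to 4. OGD 2 and OGD 3 thus stood apart from the other 10 libraries, which lay between 0.137% and 1.86%. The other RNAs known to lack poly(A) tails (small nucleolar, telomerase and RNase-component RNAs) summed to 182 and 390 CPM in OGD 2 and OGD 3, and to between 1.62 and 18.5 CPM in the other 10. CPM are read counts brought to a common library size by TMM scaling. The numbers of genes called in the OGD comparisons are therefore given with and without OGD 2 and OGD 3. Of the other cell types' markers tested, the astrocyte, neuron, oligodendrocyte, and fibroblast and endothelial lists each summed to at most 6.26 CPM in every library.

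A few genes gave most of the histone reads. H2bc4 (ENSMUSG00000018102.6, chromosome 13), an H2B gene, held 54.05% of the 122409 reads of all members, and together with H4c9, H4c8 and H3c15 it held 78.2%. Scaled to gene length, the deposited FPKM values averaged over the 12 libraries 154 for H2bc4, 76.8 for H4c9, 25.3 for H4c8, 11.5 for H3c15, 8.12 for H3c8 and 6.79 for H4c1. At the other end 49 members averaged under 5 CPM and 25 under 1 CPM. The highest level of an H2A gene belonged to H2ac6, at 2.61 FPKM, which is lower per length than each of the 6 genes above.

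Summed over all members, the level was 288, 419, 355 and 418 CPM in Control 1 to 4, 385, 589, 645 and 326 CPM in OGD 1 to 4, and 433, 352, 293 and 306 CPM in Acacetin 1 to 4. OGD 2 and OGD 3 were the highest, and the other 10 libraries lay between 288 and 433 CPM. The 4 most abundant genes and the remaining 54 did not share this pattern equally. The former summed to 398 and 377 CPM in OGD 2 and OGD 3, next to 234 to 360 CPM in the other 10, whereas the latter summed to 191 and 268 CPM, next to 53.99 to 95.1 CPM. The share of the 4 abundant genes was accordingly 67.5% (95% Wilson interval 66.7% to 68.4%) in OGD 2 and 58.5% (57.4% to 59.5%) in OGD 3, and 77.2% to 84.0% in the other 10. The intervals cover counting error only, since the reads carry no molecular identifiers. The median of the 54 genes was 2.95 and 4.14 CPM in OGD 2 and OGD 3, next to 0.505 and 0.325 CPM in OGD 1 and OGD 4.

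**Figure D1:**
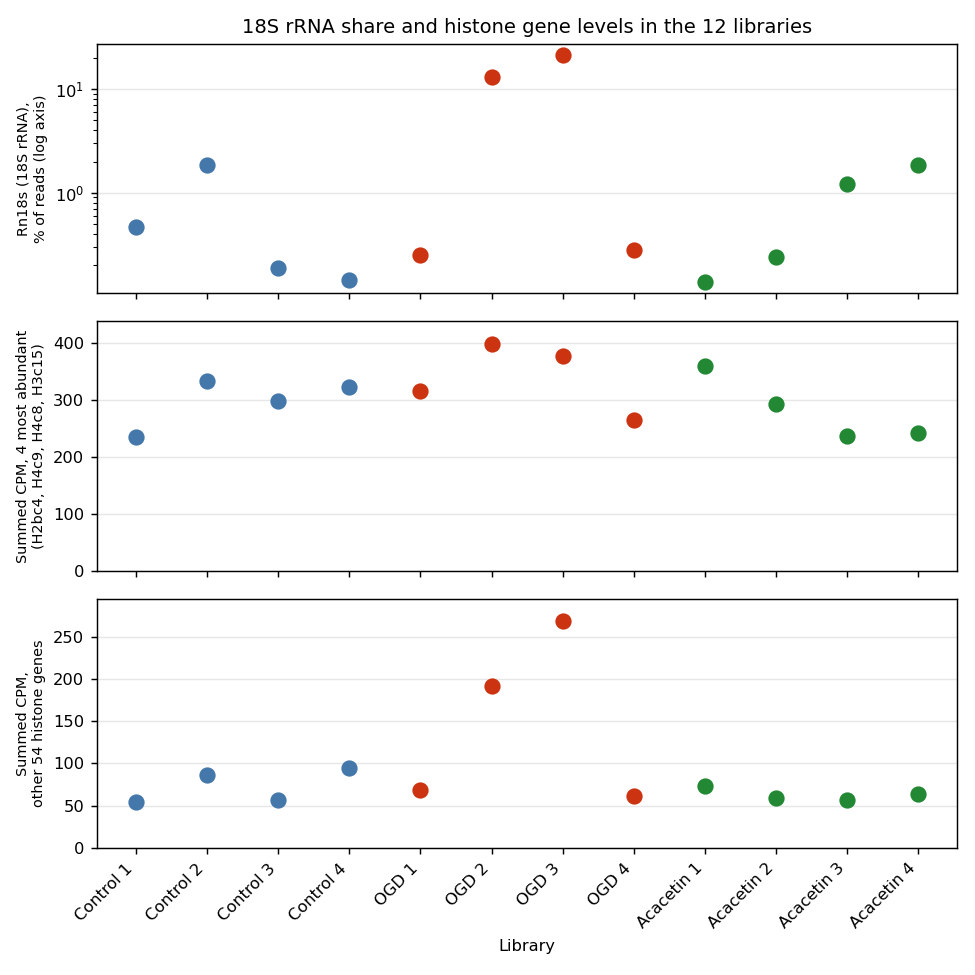
Share of reads from the 18S rRNA gene Rn18s (top, %, log axis), summed CPM of the 4 most abundant histone genes (middle) and summed CPM of the other 54 (bottom), with 1 point per library coloured by group. OGD 2 and OGD 3 are highest in all 3 panels, by the widest margin in the top and bottom ones, where the 54 genes reach 191 and 268 CPM.

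Gene by gene, both OGD 2 and OGD 3 lay above all other 10 libraries in 42 of 58 members and in 29 of the 39 tested ones. Among all tested genes the share with this pattern was 5.47%. Of the gene lists described below, it was seen in 13 of 44 tested DNA replication genes, 3 of 6 linker genes and 3 of 11 replacement histones. It was seen in 2 of 29 processing and decay genes, 2 of 22 chaperones and 1 of 11 transcription genes. For cyclins and kinases it was 1 of 17, and for cell cycle inhibitors 0 of 15. OGD 2 and OGD 3 both lay below the other 10 in 0 of 39 members, with a share of 2.47% among all tested genes. By class the pattern was seen in 3 of 7 tested H2A genes, 9 of 12 H2B genes, 8 of 9 H3 genes and 9 of 11 H4 genes. Among the 10 tested members without it were 3 of the 4 most abundant genes (H4c9, H4c8 and H3c15).

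H4c4 (ENSMUSG00000061482.8, chromosome 13), an H4 gene chosen after its values were seen, shows it plainly. Its level was 1.27, 1.62, 0.436 and 0.796 CPM in Control 1 to 4, 0.915, 9.34, 16.2 and 0.714 CPM in OGD 1 to 4, and 0.949, 0.669, 0.741 and 1.13 CPM in Acacetin 1 to 4. OGD 1 and OGD 4 lay within the Control range, and OGD 2 and OGD 3 far above it. None of the 150-base windows of its model occurs in another gene, so reads of this length can be placed on it alone. The same holds for the H2B gene H2bc14 (ENSMUSG00000114279.2, chromosome 13), also chosen after its values were seen, with 0.410, 2.90, 5.31 and 0.162 CPM in OGD 1 to 4. H2ac20 (ENSMUSG00000068855.4, chromosome 3), an H2A gene that the filter on low counts removed, had 0.379, 5.09, 7.34 and 0.195 CPM in OGD 1 to 4 and between 0.0829 and 0.8288 CPM in the other 8 libraries.

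**Figure D2:**
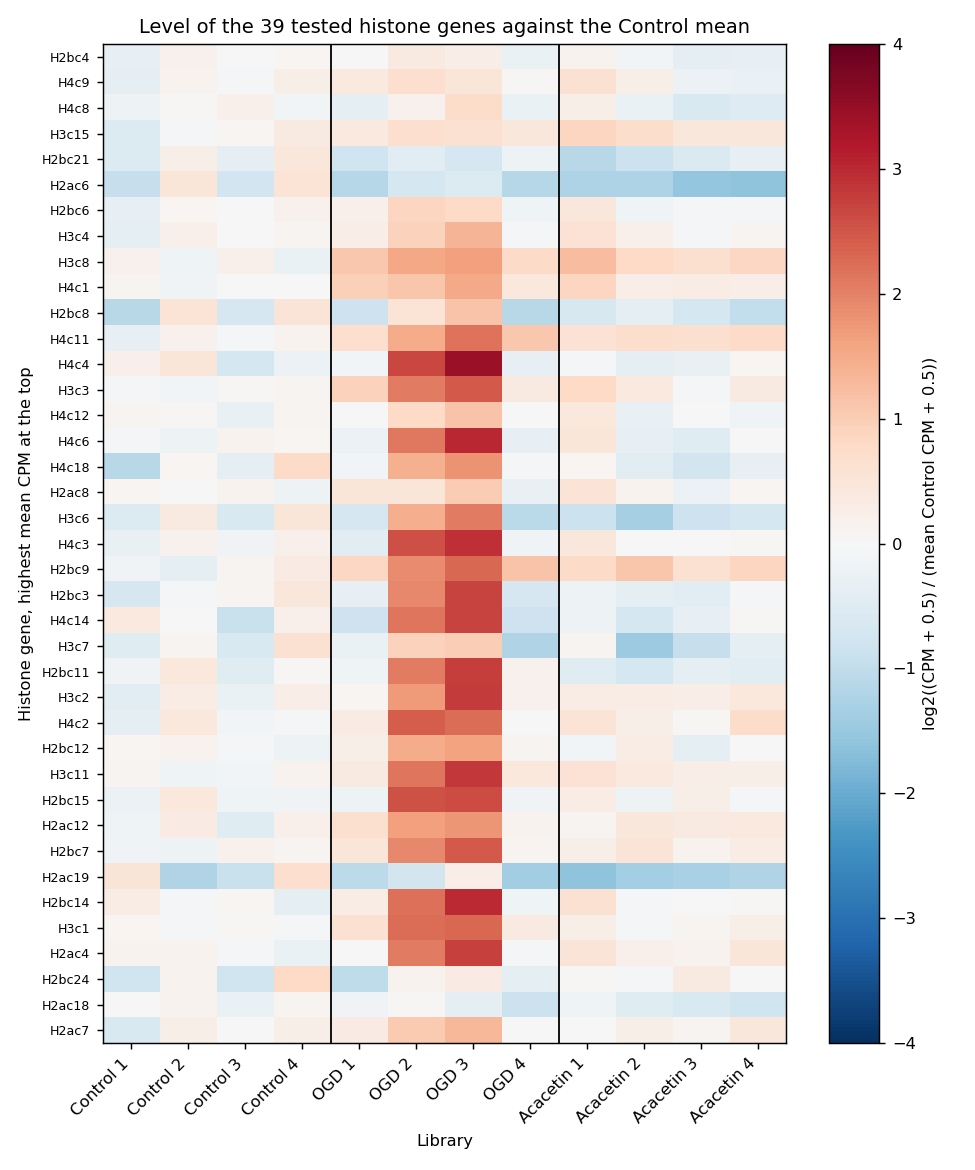
Level of each tested histone gene in each library as log2((CPM + 0.5) / (mean Control CPM + 0.5)), with genes in rows from the highest mean CPM down, libraries in columns, and red above and blue below the Control mean. The columns of OGD 2 and OGD 3 are red for most genes in the lower rows and pale for the most abundant ones in the top rows.

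The size of the difference inside the OGD group varied with the level of the gene. The mean CPM of OGD 2 and OGD 3 divided by that of OGD 1 and OGD 4 had a median of 1.47 (0.943 to 2.17) over the 9 tested members that averaged at least 5 CPM, and of 5.01 (1.53 to 29.4) over the 30 under 5 CPM. Of those 9 genes 4 had OGD 2 and OGD 3 above the other 10 libraries, and of those 30 genes 25 did. H2bc4 stood at 215, 272, 255 and 177 CPM in OGD 1 to 4, a ratio of 1.34. The same ratio was 1.27 for H4c9, 1.15 for H3c15 and 0.943 for H2bc21 (an H2B gene on chromosome 3), against 15.6 for H4c4 and 14.3 for H2bc14. The ratios describe these libraries and carry no test. For the abundant genes the direction depended on the scale. In deposited FPKM, H2bc4 stood at 163, 155, 125 and 160 in OGD 1 to 4, and H4c9 at 92.6, 83.9, 63.9 and 86.9. H3c15 stood at 11.7, 10.5, 8.68 and 14.6 FPKM, so OGD 2 and OGD 3 were the lower libraries for these genes. H4c4 stayed higher in them, at 0.71, 5.41, 8.05 and 0.66 FPKM in OGD 1 to 4.

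The annotated 3′ end gave another way to sort the members. In 16 tested members the model ends within 100 bases after the stem-loop, in 14 it goes on for more than 100 bases, and in 9 no stem-loop was matched. The limit of 100 bases was chosen here and does not by itself mark a polyadenylated form. With untested members included, a poly(A) signal lay in the last 40 bases for 2 of 22, 5 of 14 and 4 of 22 in that order. Some models without a match are short (312 bases for H4c12), and a missing match says only that the letters are not in the model. The median ratio was 4.69 (1.53 to 17.99) for the models that end there, 2.32 (1.15 to 29.4) for those that go on and 3.27 (0.943 to 17.2) for those without a match. OGD 2 and OGD 3 were above the other 10 libraries in 13 of 16, 9 of 14 and 7 of 9 genes in that order. The ranges overlap widely, and the groups also differ in level, with median levels over all their members of 0.961, 3.51 and 0.567 CPM. The model of H4c9 goes on for 330 bases after the stem-loop printed above and that of H3c15 for 377, but that of H4c4, whose ratio was 15.6, goes on for 770. H4c8, with a ratio of 1.81, ends 46 bases after it. Of these models, those of H4c9 and H4c8 hold the poly(A) signal, and those of H3c15 and H4c4 do not. The models are of GRCm38, while the deposited counts were made on GRCm39, and the annotation used for counting is not given in the sources used here.

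**Figure D3:**
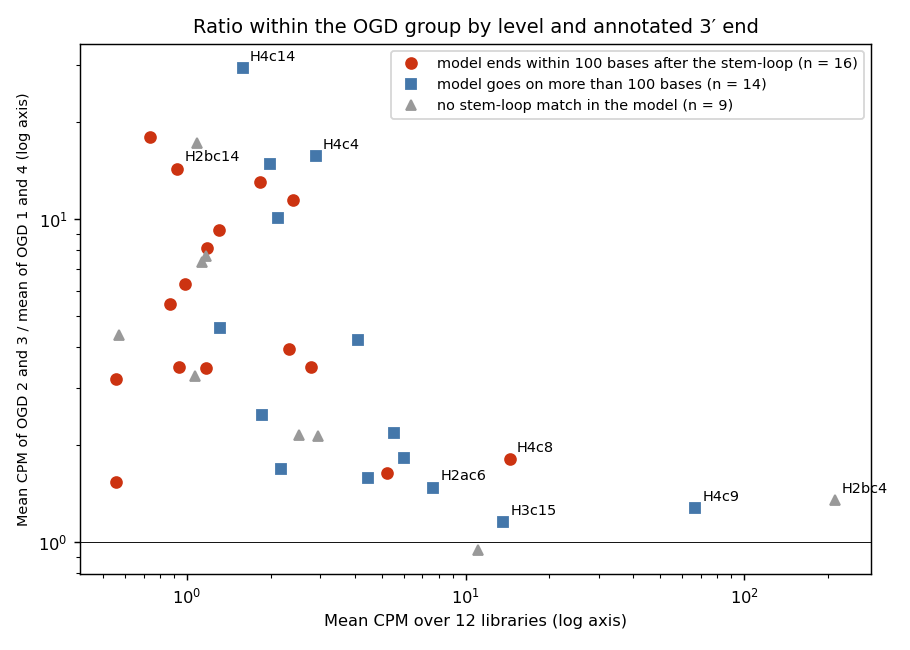
Mean CPM of OGD 2 and OGD 3 divided by the mean of OGD 1 and OGD 4 (log axis) against mean CPM over 12 libraries (log axis) for the 39 tested histone genes, with the marker showing where the annotated model ends. The 9 genes at 5 CPM or more have ratios of 0.943 to 2.17, and the 30 below reach 29.4.

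OGD against Control asked which members differ after deprivation and re-oxygenation. In such bulk libraries a different number of cells in S phase and a different amount of histone mRNA per cell cannot be told apart. With all 12 libraries, 20 of 39 tested members were higher and 0 were lower (edgeR quasi-likelihood test, Benjamini-Hochberg adjusted p under 0.05). The background was 16.2% of all 13249 tested genes higher and 12.6% lower, or 28.8% in either direction. The median log2 fold change of the members was 1.40, next to 0.03 over all tested genes, and 34 of 39 lay above 0. By class 2 of 7 H2A, 6 of 12 H2B, 6 of 9 H3 and 6 of 11 H4 genes rose. Of the 20, 19 had OGD 2 and OGD 3 above all other 10 libraries. OGD levels lay above all Control levels without overlap in 8 of the 39 members, about the background share of 19%, and below in 0, with a background of 17%. H2ac6 and H2bc21, not called here, were called lower in other fits, described below with their levels.

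Without OGD 2 and OGD 3, 3 members were higher and 0 lower, with a background of 8.18% higher and 6.35% lower (14.5% in either direction), and the median log2 fold change was 0.03. Then 22 of 39 members lay above 0. The count depended on single libraries as well. It was 8 of 39 members without OGD 3, 10 of 39 without OGD 2 and 13 of 44 without Control 4, all higher, where 13.1%, 12.1% and 12.5% of all tested genes were higher. Other libraries went the opposite way, with 26 of 45 without OGD 1 and 28 of 45 without OGD 4, also all higher. There 26% and 25.8% of all tested genes were called in either direction. The 3 that were called with and without OGD 2 and OGD 3 were H3c8, H2bc9 and H4c11. The fit without OGD 2 and OGD 3 has fewer OGD libraries and also lacks those rich in Rn18s. With 1 OGD library left out, the median log2 fold change was 1.93 without OGD 1 and 1.95 without OGD 4, over 45 tested members. It was 1.19 without OGD 2 and 1.03 without OGD 3, over 39 tested members. The part of library number or of Rn18s in the other 17 calls was not tested.

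**Figure D4:**
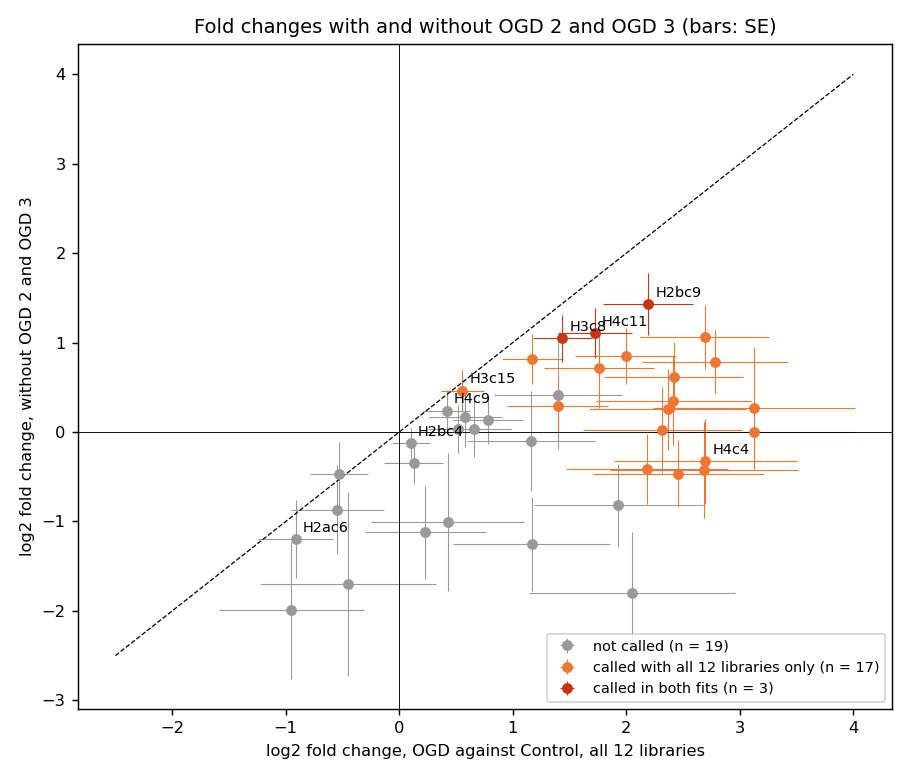
Log2 fold change of OGD against Control for the 39 tested histone genes with all 12 libraries (x axis) and without OGD 2 and OGD 3 (y axis), with SE as bars and the dashed line marking equal values. The 17 orange genes are called with all libraries only and lie below the line, and the 3 red genes, H3c8, H2bc9 and H4c11, are called in both fits.

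H3c8 (ENSMUSG00000099517.3, chromosome 13), an H3 gene, stood at 3.15, 2.40, 3.21 and 2.19 CPM in Control 1 to 4, at 6.28, 8.94, 9.52 and 5.03 CPM in OGD 1 to 4, and at 7.12, 5.09, 4.50 and 5.20 CPM in Acacetin 1 to 4. All 4 OGD libraries lay above all 4 Control libraries, those poor in Rn18s included. Its log2 fold change was 1.44 ± 0.26 (SE, edgeR adjusted p = 0.00114), and 1.05 with an adjusted p of 0.0260 without OGD 2 and OGD 3. On the deposited FPKM scale its means were 4.38 ± 0.668 in Control, 10.4 ± 0.511 in OGD and 9.56 ± 0.611 in Acacetin (SD, n = 4).

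H2bc9 (ENSMUSG00000114456.2, chromosome 13), an H2B gene, stood at 0.573, 0.415, 0.793 and 0.995 CPM in Control 1 to 4, at 1.64, 3.94, 5.31 and 2.11 CPM in OGD 1 to 4, and at 1.52, 2.07, 1.32 and 1.68 CPM in Acacetin 1 to 4. Both treated groups lay above Control in every library, with OGD 2 and OGD 3 highest. The log2 fold change of OGD against Control was 2.19 ± 0.40 (edgeR adjusted p = 0.00122), and 1.43 with 0.0223 without OGD 2 and OGD 3. H4c11 (ENSMUSG00000067455.6, chromosome 13), an H4 gene, went from 1.06 to 1.70 CPM over the Control libraries to 2.62, 4.94, 8.20 and 3.57 CPM in OGD 1 to 4. Its log2 fold change was 1.72 ± 0.33 (edgeR adjusted p = 0.00161), and 1.11 with 0.0252 without OGD 2 and OGD 3. Each of these 3 calls held with any single library of the groups left out.

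H4c1, H3c3 and H3c1 (chromosome 13), genes of H4 and H3, also had OGD levels above all Control levels, but were not called without OGD 2 and OGD 3 unless the length trend was removed. H4c1 stood at 6.06, 6.69, 9.21 and 4.03 CPM in OGD 1 to 4, next to 2.57 to 3.15 CPM in Control. Its log2 fold change was 1.17 ± 0.27 (edgeR adjusted p = 0.00493), and 0.81 with 0.0736 without those libraries. For H3c3 the values were 2.00 ± 0.44 (0.00430) and 0.85 (0.0930), and for H3c1 2.69 ± 0.57 (0.00319) and 1.06 (0.0717). Shared windows make up 23.1% of the model of H4c1, 15.6% of H3c3 and 23.4% of H3c1. Without those libraries and with a trend on gene length removed, a fit chosen after seeing the data, all 3 were called, at edgeR adjusted p of 0.00784, 0.0142 and 0.0287. That fit called 6 members higher, these and H3c8, H2bc9 and H4c11, with a background of 8.45%. H4c4 gives the contrast, at 2.70 ± 0.80 (0.0219) with all libraries and -0.33 (0.692) without OGD 2 and OGD 3. Its call was also lost without Control 3 (0.0629), Control 4 (0.0689), OGD 2 (0.0568) or OGD 3 (0.108), with the replicate block (0.0818) and with limma on the FPKM values (0.117 and 0.106 with 1 and 0.1 added).

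The abundant genes moved less or were not called. H2bc4 stood at 170, 243, 215 and 227 CPM in Control 1 to 4 and at 235, 196, 164 and 169 CPM in Acacetin 1 to 4, beside the OGD values above, and the 3 groups overlapped. Its log2 fold change in OGD against Control was 0.10 ± 0.17 (edgeR adjusted p = 0.702). H4c9 (ENSMUSG00000060639.6, chromosome 13) stood at 44.8, 64.6, 54.9 and 68.7 CPM in Control 1 to 4 and at 76.7, 92.6, 82.0 and 60.4 CPM in OGD 1 to 4, where OGD 4 fell within the Control range. It was not called, at 0.42 ± 0.21 (adjusted p = 0.150), but was with only the 8 compared libraries fitted (0.0450) and with a trend on gene length removed (0.0149). H4c8 (chromosome 13) had 0.13 ± 0.26 (0.766). H2bc6, H3c4 and H2ac8, the next genes of their classes by level, had 0.52 ± 0.27 (0.167), 0.78 ± 0.31 (0.0708) and 0.58 ± 0.32 (0.199), in that order. H3c4 was called without OGD 4 (0.0218), with DESeq2 (0.0488), with only the 8 libraries fitted (0.0484) and with the length trend removed (0.0220), and H2ac8 with the length trend removed (0.0344).

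H3c15 (ENSMUSG00000081058.6, chromosome 3) was the only one of the 4 abundant genes that was called. It stood at 6.79, 9.87, 10.6 and 13.2 CPM in Control 1 to 4 and at 13.6, 16.3, 15.6 and 14.2 CPM in OGD 1 to 4, so the groups came close without overlap. The log2 fold change was 0.56 ± 0.19 (edgeR adjusted p = 0.0422). The call was lost without each of Control 1, 2 and 3 and OGD 1, 2, 3 and 4 (adjusted p from 0.0543 to 0.114), with no filter on low counts (0.0753) and with limma on the FPKM values (0.182 and 0.170). The value was 0.46 with 0.207 without OGD 2 and OGD 3. Windows of 150 bases shared with 3 other genes make up 59.4% of its model, so the assignment of its reads is uncertain.

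**Figure D5:**
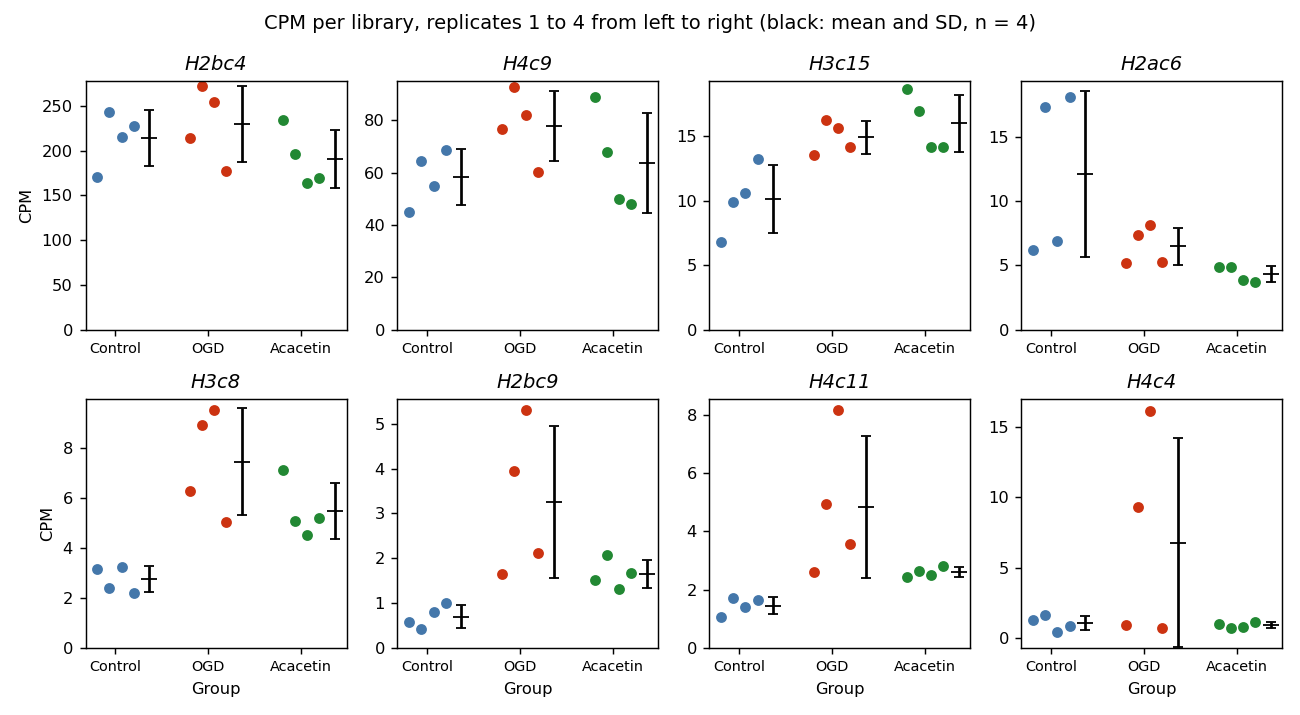
CPM of 8 histone genes in each library (coloured points, replicates 1 to 4 from left to right within each group) with the group mean and SD (black, n = 4). H3c8, H2bc9 and H4c11 are above Control in every OGD library, H4c4 only in OGD 2 and OGD 3, and H2ac6 is high in Control 2 and Control 4.

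Acacetin against Control asked which members differ from untreated cells once the compound was added. Of the 39 tested members 3 were higher and 2 lower by the same edgeR test, with a background of 14% higher and 12.9% lower (26.9% in either direction). The median log2 fold change was 0.13, next to 0.08 over all tested genes, and 23 of 39 lay above 0. Acacetin levels lay above all Control levels without overlap in 6 members and below in 2, with background shares of 12.1% and 13.5%. The libraries of this comparison all had at most 1.86% of reads from Rn18s. This comparison and the one before share the Control libraries.

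The 3 that rose were H3c8, by 1.00 ± 0.26 on the log2 scale (edgeR adjusted p = 0.0114), H3c15, by 0.66 ± 0.19 (0.0210), and H2bc9, by 1.23 ± 0.39 (0.0324). H3c15 stood at 18.7, 17.0, 14.1 and 14.2 CPM in Acacetin 1 to 4, above each Control library. The call of H3c15 was lost without Control 1 (0.0576), Control 2 (0.0595) or Acacetin 2 (0.0564). That of H2bc9 was lost without Control 1 (0.0871), Control 2 (0.0995), Control 3 (0.0568), Acacetin 2 (0.0883) or Acacetin 4 (0.0617). That of H3c8 held with any single library left out. H4c11, which stood at 2.42, 2.65, 2.50 and 2.81 CPM in Acacetin 1 to 4 and above every Control library, had 0.84 ± 0.32 (0.0664) and was not called. It was called without Acacetin 1 (0.0491) and in 6 other fits: DESeq2 (0.0403), the 8 libraries alone (0.0340), the replicate block (0.0440), limma on the FPKM values (0.0281 and 0.0175) and the length trend removed (0.0200). H4c1 was not called either, but was with limma on the FPKM values (0.0172 and 0.0179) and with the length trend removed (0.0124).

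H2ac6 (ENSMUSG00000069270.7, chromosome 13), the most abundant H2A member, fell. It stood at 6.18, 17.4, 6.90 and 18.1 CPM in Control 1 to 4, at 5.21, 7.34, 8.12 and 5.29 CPM in OGD 1 to 4, and at 4.89, 4.89, 3.84 and 3.68 CPM in Acacetin 1 to 4. Every Acacetin library lay below every Control library, and Control 2 and Control 4 lay far above Control 1 and Control 3. The log2 fold change of Acacetin against Control was -1.49 ± 0.34 (edgeR adjusted p = 0.00579), called without each library in turn. In OGD against Control it was -0.91 ± 0.33 (0.0537), and -1.20 with 0.0925 without OGD 2 and OGD 3. It was called lower in that comparison with DESeq2 (0.0205), DESeq2 size factors in edgeR (0.0451), no filter (0.0468), the 8 libraries alone (0.0354), RNAs without poly(A) tails left out (0.0494) and the length trend removed (0.0358). The adjusted p was 0.0195 without Control 1 and 0.0262 without Control 3.

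H2ac19 (ENSMUSG00000063954.8, chromosome 3), the other called H2A gene, had 2.50, 0.415, 0.634 and 2.85 CPM in Control 1 to 4 and 0.190, 0.320, 0.357 and 0.420 CPM in Acacetin 1 to 4. Control 2 lay just below Acacetin 4, so the groups overlapped. Its log2 fold change was -2.28 ± 0.66 (edgeR adjusted p = 0.0215), and the call was lost without Control 1 (0.0653), Control 4 (0.0826) or Acacetin 2 (0.0580), without Acacetin 1 and Acacetin 3 together (0.0603) and with limma on the FPKM values (0.0716 and 0.0530). All 150-base windows of its model (100%) occur in another gene, and its neighbour H2ac18 shares 87.0% of its own, so the split of reads between such copies is uncertain. Over all members 51 of 58 share at least some windows with another gene. H2bc21 (ENSMUSG00000068854.8, chromosome 3), with none shared, stood at 9.78, 17.2, 10.8 and 20.2 CPM in Control 1 to 4 and at 6.50, 7.71, 9.50 and 11.6 CPM in Acacetin 1 to 4, and had -0.72 ± 0.26 (0.0516). It was called with the replicate block (0.00911), DESeq2 (0.0323), a mean of at least 1 CPM as the filter (0.0478), and without Control 1 (0.0327), Control 3 (0.0428) or Acacetin 4 (0.0382). In OGD against Control it had -0.53 and was called lower with the replicate block alone (0.0386).

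Control libraries differed among themselves as well. In 20 of the 39 tested members Control 2 and Control 4 were both above Control 1 and Control 3, as H2ac6 and H2bc21 show above, and in 7 they were also above every other library except OGD 2 and OGD 3. Among all tested genes the shares with these patterns were 24.1% and 6.45%. Their Rn18s shares were 1.85% and 0.144%, so they did not match in that respect. The H2B gene H2bc8, chosen after its values were seen, had 1.80, 6.80, 2.58 and 6.60 CPM in Control 1 to 4. What sets these libraries apart is not given in the labels.

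Acacetin against OGD asked which members moved when the compound was added after the insult. EdgeR called 0 of 39 members, as it did 0% of all tested genes in either direction. At an unadjusted p under 0.05 there were 22 members and 685 genes in all, and the lowest adjusted p of a member was 0.290. DESeq2 called 3 of the 39 members lower, H2bc11, H3c1 and H4c4, of 34 genes called lower in all (a background of 0.257%) and 3 called higher. The median log2 fold change of the members was -1.30, next to -0.02 over all tested genes, and 2 of 39 lay above 0. Acacetin levels lay below all OGD levels without overlap in 3 members and above in 0, with background shares of 1.88% and 0.468%. The lowest value was that of H2bc11 (ENSMUSG00000069300.4, chromosome 13), an H2B gene chosen after its values were seen, at -3.43, and its levels were 0.473, 4.09, 6.87 and 0.714 CPM in OGD 1 to 4 and 0.285, 0.175, 0.330 and 0.291 CPM in Acacetin 1 to 4. OGD 1 and OGD 4 were close to the Acacetin libraries, and OGD 2 and OGD 3 were not.

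Without OGD 2 and OGD 3 the median of the members in that comparison was 0.05, with 16 of 39 below 0. EdgeR then called 0 members and 0% of all genes, 0 members and 328 genes in all had an unadjusted p under 0.05, and the lowest adjusted p of a member was 0.999. The values ran from -1.07 to 1.91. With 2 OGD libraries this does not show that the groups are alike.

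Promoter sequences were compared because the members that differ between libraries are of all 4 classes, which are known to use different elements. RefSeq promoter windows (GRCm38.p6, 250 bases before the start) were matched by symbol for 50 members with 51 promoters, and searched on both strands for CCAAT, the TATA box letters TATAAA and the octamer ATTTGCAT, which the factor POU2F1 binds. CCAAT was found in 82.4% of them, against 33.8% of 32851 promoters in all, TATAAA in 45.1% against 12.4%, and ATTTGCAT in 23.5% against 1.6%. The octamer was found in 46.7% of H2B and 31.2% of H2A promoters and in 0 of those of H3 and H4, and CCAAT in 100% of H2A and H2B, 88.9% of H3 and 27.3% of H4 promoters. The windows of H2bc14 (chr13:21721794-21722043, plus strand) and H2bc11 (chr13:22042948-22043197, plus strand) are shown as 2 H2B genes with OGD 2 and OGD 3 above all other libraries. That of H4c9 (chr13:22041363-22041612, minus strand) is shown as an abundant H4 gene without that pattern. Matches to the 3 motifs on either strand are in capitals.
H2bc14: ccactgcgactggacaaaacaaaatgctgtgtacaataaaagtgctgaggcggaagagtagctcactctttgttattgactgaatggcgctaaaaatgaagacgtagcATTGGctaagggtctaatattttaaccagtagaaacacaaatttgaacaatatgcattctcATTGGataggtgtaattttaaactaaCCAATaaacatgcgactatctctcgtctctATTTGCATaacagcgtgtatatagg
H2bc11: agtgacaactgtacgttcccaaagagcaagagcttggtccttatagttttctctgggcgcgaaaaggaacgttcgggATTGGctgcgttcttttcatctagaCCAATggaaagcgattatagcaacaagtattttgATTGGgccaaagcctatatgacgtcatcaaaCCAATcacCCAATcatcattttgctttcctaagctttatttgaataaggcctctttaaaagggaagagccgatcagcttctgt
H4c9: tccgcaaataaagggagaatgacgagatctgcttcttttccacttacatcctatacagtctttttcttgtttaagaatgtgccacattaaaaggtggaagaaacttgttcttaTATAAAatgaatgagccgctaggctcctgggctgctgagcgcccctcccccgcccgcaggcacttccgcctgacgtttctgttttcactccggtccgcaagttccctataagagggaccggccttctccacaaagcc
H2bc14 holds CCAAT and the octamer, H2bc11 holds several copies of CCAAT in both orientations, and H4c9 holds TATAAA alone. The H4 genes H4c6 and H4c18, with OGD 2 and OGD 3 above all other libraries, also hold TATAAA alone. The windows shown thus differ in class as well as in that pattern. The window of H2bc11 covers nearly the same bases as that of its divergent neighbour H2ac11 on the other strand. A match describes letters wherever they lie in the window, and binding was not measured. The TATAAA of H4c9 and H4c18 lies near the middle of the window, and that of H4c6 at the end farthest from the start.

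Linker histone genes, which seal the nucleosome, were named H1f in the table, and 6 of 8 were tested. The list was added after the files were seen. In OGD against Control 2 rose and 2 fell (0 and 1, H1f2, without OGD 2 and OGD 3). In that comparison the background, for the lists below too, was 16.2% higher and 12.6% lower. Without OGD 2 and OGD 3 it was 8.18% and 6.35%. H1f2 (ENSMUSG00000036181.3, chromosome 13), a replication-dependent linker gene chosen after its values were seen, fell in OGD, where it averaged 304 ± 42.5 CPM against 460 ± 112 CPM in Control (SD, n = 4; log2 fold change -0.60 ± 0.20, edgeR adjusted p = 0.0332) and stood at 203 ± 41.8 CPM in Acacetin (-1.18 ± 0.20 against Control, 0.000989). Its call in OGD was lost without Control 2 (0.0904), Control 4 (0.0562), OGD 1 (0.0732) or OGD 4 (0.0855). H1f0, the linker gene of cells that have stopped dividing, had -0.57 ± 0.16 (0.0135) in OGD, where the value without OGD 2 and OGD 3 was -0.50 (0.0784), and -0.93 ± 0.16 (0.00102) in Acacetin. The genes that rose in OGD were H1f4, chosen after its values were seen, and H1f5, at 3.00 ± 1.00 (0.0376) and 4.85 ± 1.14 (0.00606). They had -1.53 (0.122) and 0.97 (0.455) without OGD 2 and OGD 3, and H1f4 stood at 0.410, 11.9, 17.9 and 0.227 CPM in OGD 1 to 4. The call of H1f4 was lost without each of Control 1 to 4, OGD 2 and OGD 3 (adjusted p from 0.0660 to 0.155). H2aw, which is also on the list of replacement histones below, and H4f16, further histone genes outside the rule's symbols, rose by 0.95 ± 0.20 (0.00264) and 2.78 ± 0.77 (0.0150), and the latter had 0.56 (0.565) without OGD 2 and OGD 3 and lost its call without OGD 3 (0.0605).

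Replacement histones are made throughout the cycle, mostly from polyadenylated mRNAs, and serve as a comparison, although the models of H2ax and H2aw also hold the stem-loop (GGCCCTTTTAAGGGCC and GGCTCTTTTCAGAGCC). Of 11 tested genes 4 rose in OGD against Control, H2ax, H2az1, H3f3b and the H2aw given above, and 0 fell. Without OGD 2 and OGD 3 the counts were 3 (H2ax, H3f3b and H2aw) and 0. The median with all libraries was 0.24. H2ax, the H2A form phosphorylated at DNA breaks, went from 238 ± 46.4 to 521 ± 62.7 CPM (log2 fold change 1.13 ± 0.20, edgeR adjusted p = 0.00114). H3f3b, which encodes H3.3, had 0.89 ± 0.16 (0.00101) and H2az1, which encodes H2A.Z, 0.80 ± 0.20 (0.00973, but 0.103 without OGD 2 and OGD 3). H3f3a, the other H3.3 gene, had -0.17 ± 0.14 (0.386).

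Among genes that act on histone mRNAs, Slbp, which encodes the stem-loop binding protein, rose in OGD, where it averaged 20.01 ± 3.80 CPM against 12.02 ± 1.66 CPM in Control (log2 fold change 0.73 ± 0.20, edgeR adjusted p = 0.0127), with 0.70 and 0.109 without OGD 2 and OGD 3, and with limma on the FPKM values 0.39 (0.268) and 0.55 (0.235). The 3′ processing and decay list gave 11 rises and 0 falls among 29 tested genes (5 and 0 without those libraries), led by the cap-complex gene Srrt at 1.66 ± 0.18 (7.36e-05) and by Upf1, a helicase of mRNA decay, at 0.84 ± 0.14 (0.000674). The Upf1 call was lost with limma on the FPKM values (adjusted p of 0.0869 and 0.0734). The transcription list gave 5 rises and 0 falls among 11 (4 and 0), among them Cdc25a and Ccne1, which drive entry into S phase. Npat, the coactivator of histone transcription, averaged 0.848 ± 0.191 CPM in Control, next to 1.22 ± 0.796 CPM in OGD, and was not called (0.55 ± 0.63, edgeR adjusted p = 0.565), and neither was its partner Casp8ap2 (0.09 ± 0.81, 0.954).

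Histone chaperones, which carry new histones to DNA, gave 9 rises and 0 falls among 22 (4 and 0 without OGD 2 and OGD 3), with Hira, the H3.3 chaperone gene, at 1.02 ± 0.17 (edgeR adjusted p = 0.000745) and Tonsl at 0.81 ± 0.16 (0.00173). The Tonsl call was lost with limma on the FPKM values (adjusted p of 0.109 and 0.0966 with 1 and 0.1 added). DNA replication genes gave 16 rises and 1 fall among 44 (9 and 0), with the flap endonuclease gene Fen1 at 1.36 ± 0.18 (0.000190) and the ribonucleotide reductase gene Rrm2 at 1.08 ± 0.14 (0.000194). Cyclins and kinases of S, G2 and M phase gave 5 rises and 0 falls among 17 (4 and 0), with Aurka at 0.88 ± 0.13 and Mybl2 at 0.74 ± 0.15. Cell cycle inhibitors gave 1 rise and 4 falls among 15 (0 and 2), with Cdkn2b at -1.71 ± 0.20 and Gadd45b at -0.64 ± 0.14. In Acacetin against Control the counts of rises and falls were 11 and 0 for processing and decay and 7 and 0 for transcription. They were 8 and 0 for chaperones, 12 and 2 for DNA replication and 5 and 0 for cyclins and kinases. Cell cycle inhibitors gave 0 and 5, replacement histones 3 and 0 and linker genes 0 and 2. The background there was 14% higher and 12.9% lower. The 5 tested genes of the list of other RNAs without poly(A) tails all rose in OGD against Control, and without OGD 2 and OGD 3 1 of them, Snora73b, was called.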

How the data were processed

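The authors deposited raw read counts per gene for 24934 genes, as whole numbers, and FPKM values for 24728. Per the submitters' processing notes the tools were bcl2fastq, HISAT2 and DESeq2 on GRCm39, without versions or roles, and the counter, annotation and strand setting are not given in the sources used here. Deposited counts were tested with edgeR 4.0.16 (R 4.3.3): 13249 genes passed filterByExpr (grouped, with at least 10 reads by its rule and 15 in total), TMM scaled library sizes, and 1 quasi-likelihood fit over all 12 libraries with a mean per group gave the 3 comparisons. P-values are two-sided and Benjamini-Hochberg adjusted over all tested genes, and a gene was called under 0.05 with no limit on its fold change. All 12 columns matched a library, with 0 unmatched. A test on simulated data for OGD against Control recovered 64 of 100 genes changed by 1 on the log2 scale and 98 of 100 changed by 2 among 13141 genes, with 5 false calls. The changed genes were drawn from those above 2 CPM, a level that 7 of the 20 called members reach. All libraries were simulated with 1 dispersion trend and without the split inside the OGD group, so the figures do not carry over to these members.

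Groups follow the treatment labels. The members and the gene lists were chosen with earlier results of these data known. Genes named are the 3 most abundant members of each class, up to 5 called members per direction and comparison with the smallest p, H1f0, H1f10 (under the filter), Rn18s, Slbp, Npat, Casp8ap2, H3f3a, H3f3b, H2az1, and the 2 tested genes of each other list with the smallest p in OGD against Control. Other genes named were chosen after their values were seen. Alternatives were DESeq2 1.42.0, its size factors in edgeR, no filter, a mean of at least 1 CPM, only the 8 compared libraries, the replicate numbers as a block, limma 3.58.1 on log2(FPKM + 1) or log2(FPKM + 0.1), RNAs without poly(A) tails left out before scaling, a lowess trend (span 0.5) on log2 gene length removed, and leaving out OGD 2 and OGD 3, Acacetin 1 and Acacetin 3, or each library. Stem-loops were searched in GENCODE M21 transcripts and promoters in a RefSeq table, both of GRCm38, in Python 3.11.15.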

Additional observations from a re-analysis of the deposited data

Results flagged for a closer look

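Of 57 groups of 4 libraries examined, over summed levels and named members, 2 held a library far from the other 3 by Dixon's test, which chance alone flags in about 1 of 20 groups. Both were Acacetin 1. H2bc6 stood there at 7.31 CPM, next to 4.60 to 5.05 CPM in the other 3 Acacetin libraries, and H4c1 at 5.65 CPM, next to 3.52 to 3.60 CPM. Acacetin 1 had the lowest Rn18s share of all libraries (0.137%) and the lowest slope of log2 expression on log2 gene length (-0.213), and the part of either in these values was not tested.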

How the results depend on the processing

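The 20 calls in OGD against Control became 11 with limma on log2(FPKM + 1), 13 on log2(FPKM + 0.1), 3 without OGD 2 and OGD 3, and 6 without them and with the length trend removed, an alternative chosen after seeing the data. The share of all tested genes called went from 28.8% to 21.4%, 21.9%, 14.5% and 15.8% in that order. Leaving out 1 library gave from 8 of 39 tested members (without OGD 3, 23.5% of all genes called) to 28 of 45 (without OGD 4, 25.8%). For the 5 calls of Acacetin against Control it gave from 2 of 45 (without Acacetin 2, 18.2%) to 7 of 45 (without Acacetin 1, 43.1%). In Acacetin against OGD the 0 calls became 3 with DESeq2, and leaving out 1 library gave 0 each time. The counts under every other alternative run were within 1.5 times of the main ones. The causes were not tested, but the alternatives without OGD 2 and OGD 3 also have fewer libraries.

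With the replicate block 17 members were called in OGD against Control (34.5% of all tested genes), 7 in Acacetin against Control (32.3%) and 0 in Acacetin against OGD (0.0151%). Same-numbered libraries did not deviate together throughout, with correlations from -0.291 to 0.506, and 5 of 12 libraries correlated best with their own number, so the numbers were not taken to pair them.

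Some values changed sign. In OGD against Control without OGD 2 and OGD 3 (and, in brackets, with the length trend removed as well) the log2 fold change was -1.53 (-1.44) for Rn18s, -1.21 (-0.75) for Rmrp, the RNase MRP RNA, -1.53 (-1.48) for H1f4 and -0.33 (-0.14) for H4c4. It was -0.12 for H2bc4 and -0.35 for H4c8 without them, and -0.048 for H2bc6 in the bracketed fit. With limma on FPKM with 1 and 0.1 added it was -0.057 and -0.057 for H2bc4, -0.082 and -0.085 for H4c8, and -0.0012 and -0.050 for Casp8ap2, which also had -0.011 with the length trend removed. Leaving out 1 library gave -0.65 (without OGD 4) to 0.36 (without OGD 1) for Casp8ap2 and -0.16 (without OGD 3) to 0.27 (without OGD 1) for H4c8. In Acacetin against Control H2bc6 had -0.12 and H4c9 -0.0049 without Acacetin 1 and Acacetin 3. Leaving out 1 library gave -0.10 (without Acacetin 1) to 0.19 (without Control 4) for H2bc6 and -0.077 (without Acacetin 1) to 0.24 (without Acacetin 4) for H4c9.

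Low level limits the 49 members under 5 CPM, whose reads in all libraries together ran from 2 to 1346 (H4c1).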
